A study of Mus musculus with 9 samples.

Results

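The 10 genes described here are growth drivers of the Myc network and of the entry into the cell cycle: the Myc family genes Myc, Mycl and Mycn, their dimer partner Max, the D-type cyclins Ccnd1, Ccnd2 and Ccnd3, the cyclin D kinases Cdk4 and Cdk6, and the transcription factor gene Sox4. They were taken by name from a table of 18423 genes, with no threshold on a measured value. All 10 are in the table and all 10 passed the filter on low values, which left 11209 genes to test. Mycn passed it only through the Ctrl libraries and Arid1a_Het 3, in which it reached 1 FPKM or more.

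The data are 3 groups of 3 mRNA libraries from glands of the mouse stomach corpus. Arid1a_Het mice carried Atp4bCre, Rosa26NICD and Arid1aflox/+, that is, Cre recombinase under the promoter of the parietal cell gene Atp4b, an NICD allele at Rosa26 (NICD is the intracellular, active piece of the Notch receptor) and a loxP-flanked copy of Arid1a, a subunit gene of the BAF chromatin remodelling complex, beside a normal copy. Ctrl mice carried Atp4bCre and Rosa26NICD with no floxed Arid1a, and WT mice were wild type. Setting Ctrl against WT addresses the NICD transgene together with Atp4bCre and the tumours of the dissected region, which cannot be told apart here, setting Arid1a_Het against Ctrl addresses the floxed copy of Arid1a, and Arid1a_Het against WT covers all of these. Atp4b directs Cre to parietal cells, whereas the libraries hold whole glands. These were scraped from tumour-bearing corpus or, in WT stomachs, from the matching place. The recombined cells are thus a part of each Arid1a_Het and Ctrl sample, and WT mice carried no Cre. Each library is labelled as coming from a mouse, without stating that the 3 in a group are different mice, so a p-value measures the spread between libraries, which may be partly technical.

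Myc proteins bind DNA together with Max at E-boxes and drive genes of ribosome building and metabolism, while other partners of Max oppose them. D-type cyclins bind and activate Cdk4 and Cdk6, which phosphorylate the Rb proteins and so free the E2F factors that start DNA replication, and the Ink4 inhibitors block these kinases. NICD acts through the DNA-binding protein RBPJ, Myc is a known Notch target in T cells, and in the gastric epithelium active Notch is known to keep progenitor cells dividing. Sox4 belongs to the SoxC group of transcription factors, which act in progenitor cells and are often high in tumours.

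Depth was 22653249 to 29478481 reads over genes per library. Arid1a, the gene with the floxed copy, had 8.94, 5.90 and 6.96 FPKM (fragments scaled to transcript length and library depth) in the Arid1a_Het libraries, 14.9, 13.3 and 16.2 in Ctrl and 13.5, 7.79 and 11.97 in WT. The chief cell gene Pgc, which encodes a pepsinogen, made up 17.9% of the summed FPKM in Arid1a_Het 2 and 16.5% in WT 2, against 1.49% to 8.38% in the other libraries. WT 2 was the lowest WT library for 7 of the 10 growth drivers, Arid1a_Het 2 was the lowest of its group for 6, and Arid1a_Het 3 was the highest of its group for 9. The sample record of Arid1a_Het 3 is numbered apart from those of the other libraries, which run in sequence. Whether it was prepared apart from them was not tested. The pancreatic protease gene Ctrb1, singled out after its values were seen, had 375 FPKM in Arid1a_Het 3 and 1084 in Ctrl 1, called the libraries that carry Ctrb1 in what follows, and at most 1.70 in each of the other libraries. The parietal cell genes Atp4a and Atp4b, the chief cell gene Pgc and the pit cell gene Gkn2 were present in every library. A gene was called where the Benjamini-Hochberg adjusted p of limma, over all genes tested, was under 0.05. Log2 fold changes, given with their standard error (SE), were taken from log2(FPKM + 1) and therefore understate the changes of low genes.

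The promoter windows of RefSeq, of 300 bases each, hold 7 of the 10 growth drivers in 8 windows on GRCm38.p6, and Myc, Ccnd1 and Ccnd2 are not among them. The windows were searched on both strands for the RBPJ core TGGGAA, the E-box CACGTG that Myc and Max bind, the E2F motif TTTNGCGC and the TCF/LEF motif CTTTGAT of Wnt signalling. Of all 32851 RefSeq windows, 25.6% hold the RBPJ core, 7.15% the E-box, 1.38% the E2F motif and 3.73% the TCF/LEF motif. The stretches below are shown because Sox4 and Cdk6 were called in the comparison of Ctrl with WT and because the Cdk4 window holds 4 E-boxes, a number reached by 8 of all windows (0.0244%). Each stretch is written 5′ to 3′ on the strand of its gene, runs from the far end of the window to the last base before an annotated exon of the gene, and has every motif match in capitals. The Sox4 stretch of 236 bases lies at chr13:28953714-28953949 on the minus strand and holds an RBPJ core at position -100 from the RefSeq start. The Cdk6 stretch of 89 bases lies at chr5:3343643-3343731 on the plus strand and holds an E-box at -220, and it falls inside the annotated Cdk6 gene, which has a start further upstream. The Cdk4 stretch of 249 bases lies at chr10:127063285-127063533 on the plus strand, with E-boxes at -172, -118, -98 and -11, an RBPJ core read from the opposite strand (TTCCCA) at -141 and a TCF/LEF motif read from the opposite strand (ATCAAAG) at -52. No match in these stretches overlaps another.
Sox4: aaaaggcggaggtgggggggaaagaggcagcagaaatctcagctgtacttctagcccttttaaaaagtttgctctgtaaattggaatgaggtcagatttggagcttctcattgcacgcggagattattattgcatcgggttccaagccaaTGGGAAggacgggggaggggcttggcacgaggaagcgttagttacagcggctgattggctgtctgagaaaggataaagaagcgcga
Cdk6: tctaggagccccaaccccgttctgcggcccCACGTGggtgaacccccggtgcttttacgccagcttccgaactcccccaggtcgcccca
Cdk4: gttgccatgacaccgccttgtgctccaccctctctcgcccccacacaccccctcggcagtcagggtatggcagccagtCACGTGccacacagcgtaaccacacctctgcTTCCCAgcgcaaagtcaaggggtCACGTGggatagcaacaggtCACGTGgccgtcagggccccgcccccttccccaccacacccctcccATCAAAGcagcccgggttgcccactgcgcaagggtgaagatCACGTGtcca
Max holds an E-box at -3, and Mycn holds 3 E2F matches at -183, -179 and -168, of which the first and the next overlap. The windows of Mycl and Ccnd3 hold none of these letters. A match is a description of the letters and was not tested as a binding site.

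In glands with Atp4bCre and the NICD transgene, Myc, Ccnd1, Cdk6 and Sox4 were higher in Ctrl than in WT, by ratios of group means of 2.65, 3.39, 3.99 and 2.72 in FPKM. These 4 of 10 were called higher and 0 were called lower in limma, where 7.01% of all tested genes were called higher and 3.04% lower. At an unadjusted p under 0.05, 8 of the 10 were higher and 0 lower, against 23.7% of all tested genes higher and 8.44% lower. Limma voom on whole reads called 3 higher (Ccnd1, Cdk6 and Myc) and 0 lower, against 5.53% of all tested genes higher and 2.31% lower. All 3 Ctrl libraries lay above all 3 WT libraries for 9 of the 10 growth drivers, every one but Ccnd2, against 33.5% of all tested genes, and the reverse held for 0 growth drivers, against 10.2% of all genes. Mycn is among these 9 and among the 8 above. It passed the filter only through the Ctrl libraries and Arid1a_Het 3, so its direction here was not free of the filter. The median log2 fold change was 0.79 over the 10 genes and 0.24 over all tested genes, of which 71.3% were positive. All 10 changes were positive as deposited, but Ccnd3 turned to -0.057 under quantile normalization.

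Scaling the libraries by median ratios moved the median of all genes to 0.01, and the calls over all genes were 786 higher of 1127 as deposited and 618 higher of 1236 after that scaling. Measured from the median of all genes, the changes were 1.13 for Myc, 1.52 for Ccnd1, 1.29 for Cdk6 and 1.18 for Sox4, and 0.01 for Ccnd3. After median-ratio scaling 3 of the 10 stayed called (Myc, Ccnd1 and Cdk6), against 5.51% of all tested genes called higher. With that scaling 8 still had Ctrl above WT in every library, all but Ccnd2 and Ccnd3, against 20.6% of all tested genes, and 0 had Ctrl below WT in every library, against 21.7%. Mycn is again among the 8. For Sox4 and Cdk4 the gap was very narrow there. The lowest Ctrl and highest WT values were 17.35 and 17.29 for Sox4 and 31.72 and 31.69 for Cdk4, in scaled FPKM. These libraries are bulk samples, so a higher share of cells with a given mRNA and more of that mRNA per cell cannot be told apart.

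**Figure D1:**
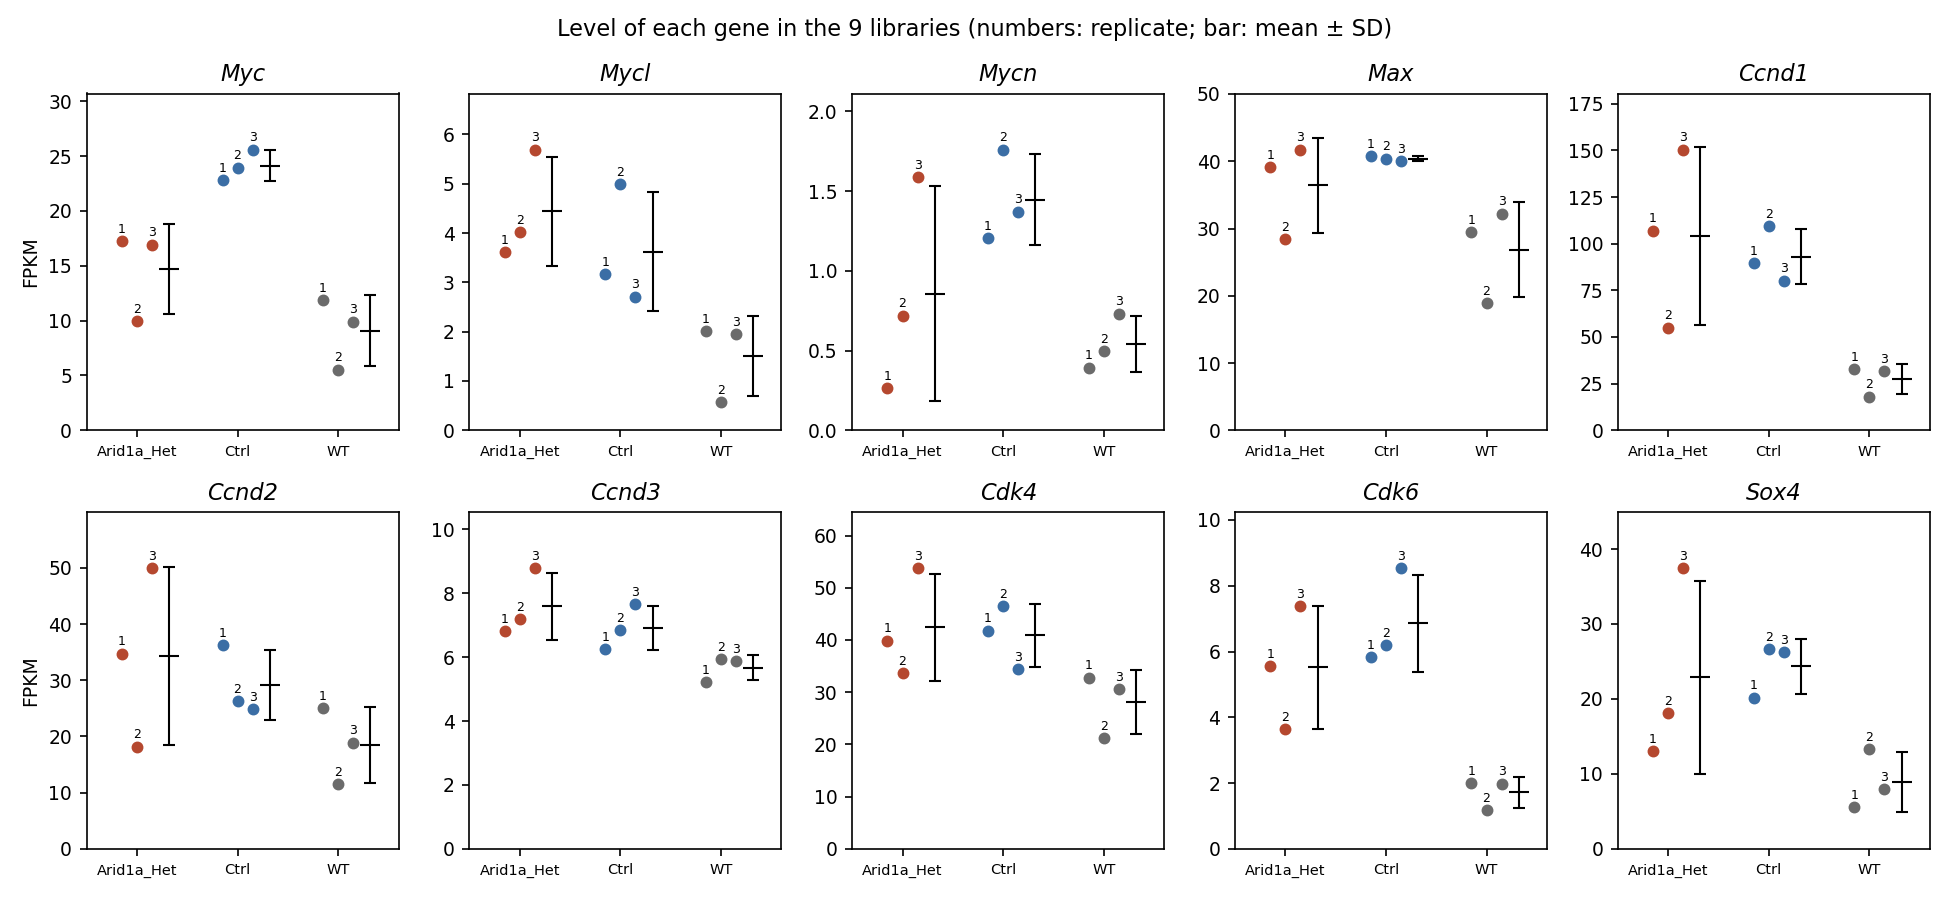
Level of each growth driver in FPKM (linear axis from 0, 1 panel per gene) in every library, with Arid1a_Het at the left, Ctrl in the middle and WT at the right. Points are libraries with their replicate number, and bars give the mean ± SD (n = 3 libraries). Ccnd1, Cdk6 and Myc stand clear of WT in Ctrl. For Myc the Arid1a_Het libraries lie below the Ctrl libraries, as they do for 22.2% of all tested genes, and that change was not called.

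Myc, the most abundant family member, had 22.8, 23.9 and 25.6 FPKM in Ctrl libraries 1 to 3, against 11.8, 5.53 and 9.89 FPKM in WT libraries 1 to 3. The Ctrl libraries lay close together and all above the highest WT library, WT 1. In limma the log2 fold change was 1.37 (SE 0.28, limma adjusted p = 0.0190). The call was lost in 5 of 21 processing alternatives, with adjusted p-values over them of 4.48e-05 to 0.0775: without any 1 of the Ctrl libraries, without WT 3, and without the libraries that carry Ctrb1 (adjusted p = 0.0559). The lowest value, here and in the ranges given below for Ctrl against WT, came from array weights. That fit did not converge and called 5710 genes in this comparison.

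Mycl, which encodes L-Myc, had 3.17, 4.99 and 2.71 FPKM in Ctrl libraries and 2.005, 0.574 and 1.95 FPKM in WT libraries. Mycn, which encodes N-Myc of the embryo, had 1.21, 1.76 and 1.37 FPKM in Ctrl libraries and 0.392, 0.496 and 0.732 FPKM in WT libraries. Max, the common partner, had 40.7, 40.4 and 39.99 FPKM in Ctrl libraries and 29.4, 18.9 and 32.2 FPKM in WT libraries. For each of these genes every Ctrl library was above every WT library, although none of the changes was called. For Mycn that direction was not free of the filter, which it passed only through the Ctrl libraries and Arid1a_Het 3. The log2 fold changes were 0.91 for Mycl (SE 0.30, limma adjusted p = 0.0788), 0.67 for Mycn (SE 0.26, limma adjusted p = 0.114) and 0.60 for Max (SE 0.21, limma adjusted p = 0.0982). With the replicate number as a block Max was called, at a limma adjusted p of 0.0376 (range over its 21 alternatives 0.00568 to 0.246).

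Max mRNA exceeded the summed Myc family mRNA in every library, but by different amounts. The ratio of Max FPKM to the summed FPKM of Myc, Mycl and Mycn was 1.84 ± 0.106 in Arid1a_Het, 1.39 ± 0.0976 in Ctrl and 2.50 ± 0.405 in WT (SD, n = 3 each). The ranges, 1.72 to 1.93 in Arid1a_Het, 1.32 to 1.4997 in Ctrl and 2.07 to 2.87 in WT, did not overlap. Such a ratio within a library does not depend on the scaling between libraries. An exact permutation test of 3 against 3 libraries cannot give a p under 0.1, so these ratios and the shares below are given as values with no test.

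Ccnd1, which encodes cyclin D1, had the highest mean of the growth drivers. It had 89.5, 109 and 80.2 FPKM in Ctrl libraries, against 32.7, 18.0 and 31.7 FPKM in WT libraries. The lowest Ctrl library, Ctrl 3, was above the highest WT library, WT 1. This came to a log2 fold change of 1.76 (SE 0.36, limma adjusted p = 0.0191). The call was lost in 4 of 21 alternatives, without any 1 of the Ctrl libraries or without WT 2, with adjusted p-values over all alternatives of 5.53e-05 to 0.0672.

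Ccnd2, which encodes cyclin D2, had 36.3, 26.3 and 24.9 FPKM in Ctrl libraries and 25.1, 11.5 and 18.9 FPKM in WT libraries. Ctrl 3 lay just under WT 1, the overlap that set Ccnd2 apart from the other growth drivers. Its log2 fold change of 0.67 (SE 0.37) was not called (limma adjusted p = 0.225). Ccnd3, which encodes cyclin D3, had 6.26, 6.84 and 7.65 FPKM in Ctrl libraries and 5.21, 5.95 and 5.87 FPKM in WT libraries. The Ctrl libraries lay above by a narrow margin that was gone after median-ratio scaling, and the log2 fold change of 0.24 (SE 0.15) was not called (limma adjusted p = 0.272).

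The makeup of cyclin D mRNA in WT lay apart from that in the other groups. Ccnd1 made up 70.8% ± 2.07 of the summed D cyclin FPKM in Arid1a_Het and 71.9% ± 4.52 in Ctrl, against 52.9% ± 2.84 in WT (SD, n = 3 each). Its share was 68.4% to 72.0% in Arid1a_Het, 67.8% to 76.7% in Ctrl and 50.7% to 56.1% in WT, so each library with the transgenes was above each WT library. Ccnd2 held 23.3% in Arid1a_Het, 22.7% in Ctrl and 35.3% in WT, and Ccnd3 held 5.92% in Arid1a_Het, 5.44% in Ctrl and 11.8% in WT, as means. Summed over the D cyclins, Arid1a_Het averaged 146 ± 64.4 FPKM, Ctrl 129 ± 15.1 FPKM and WT 51.6 ± 14.4 FPKM.

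**Figure D2:**
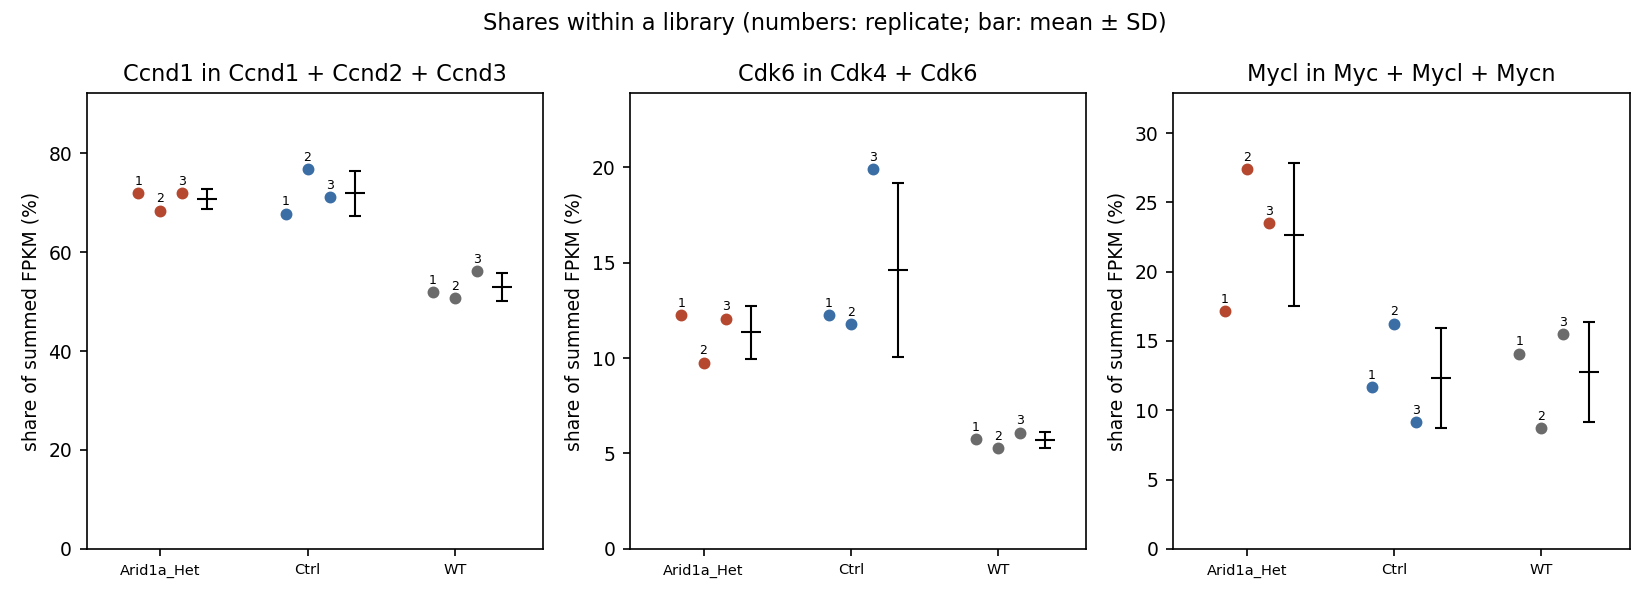
Share (%) of Ccnd1, Cdk6 and Mycl in the summed FPKM of their families in every library, with Arid1a_Het left of Ctrl and Ctrl left of WT; points are libraries with their replicate number, and bars give the mean ± SD (n = 3). Ccnd1 takes 67.8% or more of the D cyclins in the libraries with the NICD transgene and 56.1% or less in WT, and Cdk6 takes 9.75% or more of its family in those libraries and 6.09% or less in WT.

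Cdk4 was the more abundant kinase gene. It had 41.8, 46.4 and 34.4 FPKM in Ctrl libraries and 32.7, 21.2 and 30.6 FPKM in WT libraries. The lowest Ctrl library was above the highest WT library by a small margin, and the log2 fold change of 0.53 (SE 0.22) was not called (limma adjusted p = 0.137). The annotated Cdk4 gene shares 641 bases with Tspan31 on the opposite strand, a gene at 46.5 to 60.7 FPKM over the 9 libraries. The sources used here do not give whether reads were counted by strand, so reads from this stretch may belong to either gene.

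Cdk6 had 5.83, 6.19 and 8.54 FPKM in Ctrl libraries, against 1.995, 1.18 and 1.985 FPKM in WT libraries. Its lowest Ctrl library was far above its highest WT library. Cdk6 had a log2 fold change of 1.53 (SE 0.25, limma adjusted p = 0.00910), and the gene was called in all 21 alternatives, at adjusted p-values of 3.75e-05 to 0.0483. Cdk6 made up 11.4% ± 1.39 of the summed Cdk4 and Cdk6 FPKM in Arid1a_Het and 14.6% ± 4.56 in Ctrl, against 5.70% ± 0.416 in WT (SD, n = 3 each), with no overlap between WT and the other groups. Ctrl 3 held the highest share, 19.9%, while Ctrl 1 and Ctrl 2 lay at 12.2% and 11.8%. The ratio of D cyclin to kinase FPKM was 2.95 ± 0.692 in Arid1a_Het, 2.70 ± 0.0734 in Ctrl and 1.71 ± 0.115 in WT, and every library with the transgenes was above every WT library.

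Sox4 had 20.2, 26.6 and 26.3 FPKM in Ctrl libraries, against 5.51, 13.3 and 7.99 FPKM in WT libraries. The groups did not overlap, and WT 2, the WT library rich in Pgc and low for most growth drivers, was the highest WT library here. The log2 fold change was 1.42 (SE 0.38, limma adjusted p = 0.0473). The call was lost in 11 of 21 alternatives, with adjusted p-values over them of 0.000492 (array weights, which did not converge) to 0.150: with no filter, median-ratio scaling, quantile normalization, voom on whole reads, without the libraries rich in Pgc, and without any 1 of the Ctrl or WT libraries. The log2 fold change stayed between 1.15 and 1.72.

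Of the other SoxC genes, Sox12 was lower in Ctrl. It had 0.416, 0.190 and 0.174 FPKM in Ctrl libraries, against 1.12, 2.04 and 1.87 FPKM in WT libraries, with a log2 fold change of -1.07 (SE 0.19, limma adjusted p = 0.0118). Sox12 passed the filter only through the WT libraries, so it had to be higher there to be tested. Its call was lost in 1 of 16 alternatives, without Ctrl 3 (adjusted p = 0.0551, range 0.000116 to 0.0551). Sox11, left out by the filter, was listed at 0.214, 0.140 and 1.06 FPKM in Arid1a_Het libraries, at 0.939, 0.889 and 0.913 FPKM in Ctrl libraries and at 0.0104, 0.0366 and 0.00518 FPKM in WT libraries. These stand for 51, 33 and 256 reads in the Arid1a_Het libraries, for 177, 218 and 205 reads in the Ctrl libraries and for 2, 8 and 1 reads in the WT libraries. Arid1a_Het 1 and Arid1a_Het 2 lay between the WT and Ctrl libraries and Arid1a_Het 3 above both groups. Arid1a_Het libraries had 0.188, 0.230 and 0.355 FPKM of Sox12, also lower than WT (log2 fold change -1.07, SE 0.19, limma adjusted p = 0.0205), and that call was lost in 3 of 16 alternatives (range 0.00595 to 0.0794): without Arid1a_Het 1, without the libraries that carry Ctrb1, and with only the groups compared.

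With 1 copy of Arid1a floxed on top of the NICD transgene, 0 of the 10 growth drivers were called higher and 0 lower than in Ctrl. Over all tested genes limma called 0% higher and 0.00892% lower, a single gene. At an unadjusted p under 0.05, 0 growth drivers were higher and 1 of 10, Myc, was lower, against 1.15% of all tested genes higher and 10.5% lower, a share near that of all genes. Voom called 0 growth drivers in either direction and 0% of all tested genes. Myc was also the 1 growth driver of 10 whose groups did not overlap in the lower direction, against 22.2% of all tested genes, and 0 did so in the higher direction, against 2.41%. The median log2 fold change was -0.06 over the 10 genes and -0.16 over all tested genes.

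Myc had 17.2, 9.94 and 16.9 FPKM in Arid1a_Het libraries, against 22.8, 23.9 and 25.6 FPKM in Ctrl libraries. The highest Arid1a_Het library was below the lowest Ctrl library, also after median-ratio scaling, where 9.97% of all tested genes had such a gap. The log2 fold change was -0.71 (SE 0.28), with an unadjusted limma p of 0.0285 and an adjusted p of 0.404. Over 21 alternatives the log2 fold change ran from -0.87 to -0.47 and was called in none.

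Mycl was at 3.61, 4.02 and 5.69 FPKM in Arid1a_Het libraries and at 3.17, 4.99 and 2.71 FPKM in Ctrl libraries. Its log2 fold change was 0.25 (SE 0.30, limma adjusted p = 0.717), and the libraries overlapped. Mycl held 22.7% ± 5.18 of the summed Myc family FPKM in Arid1a_Het, against 12.4% ± 3.61 in Ctrl and 12.8% ± 3.60 in WT (SD, n = 3 each). The lowest Arid1a_Het share, 17.1%, was above the highest shares of 16.3% in Ctrl and 15.5% in WT. Myc itself held 73.1% in Arid1a_Het, 82.7% in Ctrl and 81.9% in WT on average, with overlapping libraries.

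For each of the other 8 growth drivers the SD of FPKM as deposited was larger over the Arid1a_Het libraries than over the Ctrl libraries, but after median-ratio scaling this turned round for Cdk6 (SD 1.44 in Arid1a_Het and 1.55 in Ctrl). Ccnd1 had 107, 54.9 and 150 FPKM in Arid1a_Het libraries, against 89.5, 109 and 80.2 FPKM in Ctrl libraries. Arid1a_Het 2 lay below every Ctrl library and Arid1a_Het 3 above every one. Sox4 showed another order, with 13.1, 18.1 and 37.5 FPKM in Arid1a_Het libraries and 20.2, 26.6 and 26.3 FPKM in Ctrl libraries. Arid1a_Het 1 was the lowest and Arid1a_Het 3 the highest of these. In the Arid1a_Het libraries Ccnd2 had 34.8, 18.2 and 49.97 FPKM. Cdk4 had 39.8, 33.6 and 53.8 FPKM there. Cdk6 had 5.56, 3.64 and 7.37 FPKM there. Arid1a_Het 3, 1 of the libraries that carry Ctrb1, was the highest of its group for each of these genes. The log2 fold change of Ccnd1 against Ctrl was 0.06 (SE 0.36) with all libraries and -0.29 without the libraries that carry Ctrb1, and it was not called in either fit. Mycn had 0.265, 0.719 and 1.59 FPKM in Arid1a_Het libraries, against 1.21, 1.76 and 1.37 FPKM in Ctrl libraries, with a log2 fold change of -0.45 (SE 0.26, limma adjusted p = 0.503). Max had 39.1, 28.4 and 41.7 FPKM in the Arid1a_Het libraries and a log2 fold change against Ctrl of -0.16 (SE 0.21). Ccnd3 had 6.81, 7.20 and 8.79 FPKM in the Arid1a_Het libraries and a log2 fold change against Ctrl of 0.12 (SE 0.15). Neither was called. The log2 fold changes against Ctrl were 0.14 for Ccnd2, 0.04 for Cdk4, -0.29 for Cdk6 and -0.21 for Sox4, at limma adjusted p-values of 0.622 to 0.950.

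**Figure D3:**
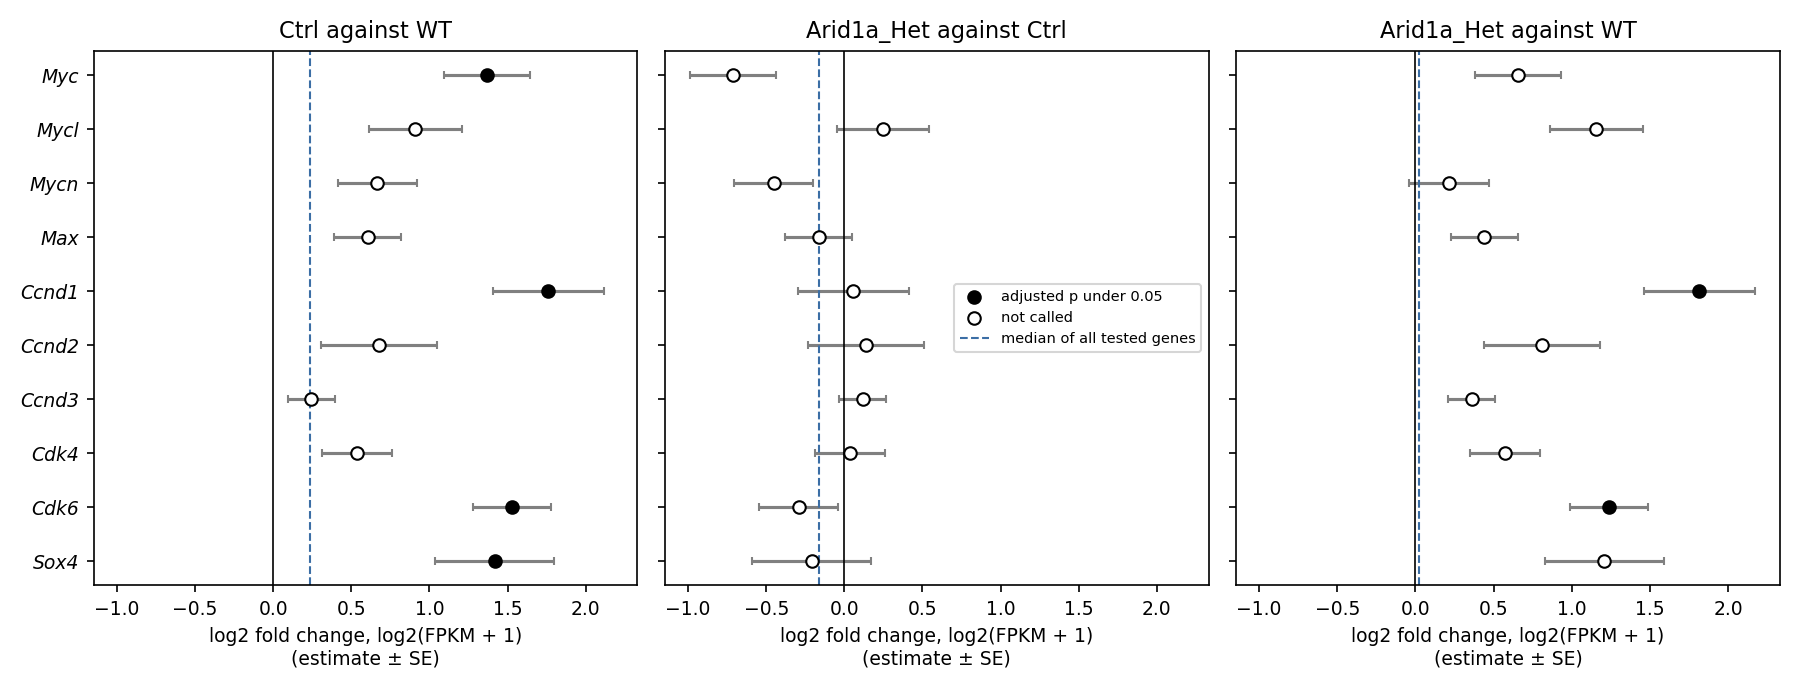
Log2 fold change of each growth driver on the log2(FPKM + 1) scale (point) with its standard error (bar) in the 3 comparisons, filled where limma's adjusted p was under 0.05, with a dashed line at the median of all tested genes. In these panels Ctrl against WT has 4 filled points, Arid1a_Het against Ctrl has 0, and Arid1a_Het against WT has 2, Ccnd1 and Cdk6.

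Against WT, the Arid1a_Het libraries were higher for Ccnd1 and Cdk6, and these 2 of 10 were called higher and 0 lower, where 2.06% of all tested genes were called higher and 0.687% lower. At an unadjusted p under 0.05, 7 were higher and 0 lower, against 9.81% of all tested genes higher and 7.38% lower. Voom called Ccnd1 and Cdk6 higher and 0 growth drivers lower, against 1.41% of all tested genes higher and 0.526% lower. The libraries did not overlap for 5 of the 10 in the higher direction (Mycl, Ccnd1, Ccnd3, Cdk4 and Cdk6), against 10.6% of all tested genes, and for 0 in the lower direction, against 8.57%. After median-ratio scaling 6 did not overlap in the higher direction (Myc, Mycl, Max, Ccnd1, Cdk4 and Cdk6), against 13.1% of all tested genes. The comparisons of Ctrl with WT and of Arid1a_Het with WT share the WT libraries, so their changes are not independent.

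Ccnd1 had 107, 54.9 and 150 FPKM in Arid1a_Het libraries, against 32.7, 18.0 and 31.7 FPKM in WT libraries. Even Arid1a_Het 2, the lowest, was above all WT libraries. This came to a log2 fold change of 1.82 (SE 0.36, limma adjusted p = 0.0315). Cdk6, at 5.56, 3.64 and 7.37 FPKM in Arid1a_Het libraries and 1.995, 1.18 and 1.985 FPKM in WT libraries, had a log2 fold change of 1.24 (SE 0.25, limma adjusted p = 0.0346). Each call was lost in 11 of 21 alternatives, with adjusted p-values of 0.00296 to 0.137 for Ccnd1 and 0.00482 to 0.166 for Cdk6: with no filter, with only the groups compared, without the libraries that carry Ctrb1, and without any 1 library other than Arid1a_Het 2. The directions did not change in these alternatives.

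Mycl had 3.61, 4.02 and 5.69 FPKM in Arid1a_Het libraries, against 2.005, 0.574 and 1.95 FPKM in WT libraries. Its log2 fold change of 1.16 (SE 0.30) missed the threshold (limma adjusted p = 0.0770) and was called after median-ratio scaling, at 0.0480 (range over 20 alternatives 0.0424 to 0.335). Sox4 had 13.1, 18.1 and 37.5 FPKM in Arid1a_Het libraries, against 5.51, 13.3 and 7.99 FPKM in WT libraries, and Arid1a_Het 1 lay just below WT 2. Its log2 fold change was 1.21 (SE 0.38, limma adjusted p = 0.135). The other 6 had log2 fold changes of 0.81 for Ccnd2, 0.66 for Myc, 0.57 for Cdk4, 0.44 for Max, 0.36 for Ccnd3 and 0.21 for Mycn, at limma adjusted p-values of 0.226 to 0.758.

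By mean FPKM over the 9 libraries the order was Ccnd1 (74.9), Cdk4 (37.1), Max (34.5), Ccnd2 (27.3), Sox4 (18.7), Myc (16.0), Ccnd3 (6.73), Cdk6 (4.70), Mycl (3.19) and Mycn (0.948). FPKM is a level per length, so genes can be set beside each other, though only roughly. Reads given to Cdk4 or Ccnd3 may come in part from an overlapping gene or a pseudogene. Mycl was above Mycn in 9 of 9 libraries. Max was above Ccnd2, Myc above Ccnd3 and Ccnd3 above Cdk6 in 8 of 9 each, and Ccnd1 above Cdk4, Cdk4 above Max and Cdk6 above Mycl in 7 of 9 each. The order of Ccnd2 and Sox4 held in 6 and that of Sox4 and Myc in 5 of 9 libraries, so these neighbours were not separated.

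The genes whose pattern over the 9 libraries lay nearest to that of Myc, by the root mean square difference of centred log2(FPKM + 1), were Pold3 (0.11), Enkd1 (0.13), Sh3bp2 (0.14), Psrc1 (0.14) and Noxo1 (0.15). For Ccnd1 they were Tspan12 (0.20), Lipt2 (0.23), S100a11 (0.26), S100a16 (0.26) and Nfe2l3 (0.28), with Cdk6 at rank 60 (0.36). For Sox4 they were Timp1 (0.24), Pla2g7 (0.25), Clec7a (0.25), Endod1 (0.27) and Igf2 (0.27). Cdk6 was also the growth driver nearest to Myc, at rank 362 (0.30), and to Sox4, at rank 246 (0.49). The farthest growth drivers were Sox4 from Myc (rank 7581), Ccnd3 from Ccnd1 (rank 3420) and Ccnd2 from Sox4 (rank 2862). Such a likeness describes 9 libraries that share 3 groups and was not tested.

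The lists of further pathway genes gave few calls, and those lay among the inhibitors, the E2F factors and the SoxC genes. Of the kinase inhibitors, 6 of 7 were tested, and Cdkn2a was called higher and Cdkn1c lower in Ctrl than in WT. Cdkn2a, which encodes the Ink4 inhibitor p16 of Cdk4 and Cdk6 and the p53 activator Arf, had 4.29, 6.54 and 4.99 FPKM in Ctrl libraries, against 0.0367, 0.130 and 0 FPKM in WT libraries, where these values stand for 1, 4 and 0 reads. The gene level does not separate its transcripts. The log2 fold change was 2.56 (SE 0.29, limma adjusted p = 0.00203) and 6.62 by voom on whole reads, a size that depends on the pseudocount. Arid1a_Het libraries had 6.19, 4.13 and 11.1 FPKM, with a log2 fold change of 2.86 against WT (SE 0.29, limma adjusted p = 0.00206). Cdkn2a was called in all 21 alternatives of both comparisons, and it passed the filter only through the groups in which it was high.

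Cdkn1c, the gene of the kinase inhibitor p57, had 3.63, 3.52 and 1.42 FPKM in Ctrl libraries, against 10.03, 6.58 and 9.56 FPKM in WT libraries. Its log2 fold change was -1.37 (SE 0.30, limma adjusted p = 0.0239), and the call was lost in 6 of 21 alternatives (adjusted p over them 0.000139 to 0.0756): with no filter, without the libraries that carry Ctrb1, and without Ctrl 2, Ctrl 3, WT 1 or WT 3. In Arid1a_Het it had 2.396, 4.64 and 3.31 FPKM and was not called against WT (log2 fold change -1.14, limma adjusted p = 0.0817). Cdkn1a, the gene of p21, had 105 ± 16.2 FPKM in Ctrl and 137 ± 19.0 FPKM in WT (SD, n = 3 each), and Cdkn1b, the gene of p27, had 12.9 ± 1.32 in Ctrl and 10.9 ± 4.42 in WT. Neither was called.

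Of 12 tested genes of the Rb family, the E2F factors and their DP partners, 2 were called higher in Ctrl and 0 lower, with a median log2 fold change of 0.53. E2f3, an activator E2F, averaged 5.51 ± 0.391 FPKM in Ctrl and 2.89 ± 0.829 FPKM in WT (log2 fold change 0.77, SE 0.20, limma adjusted p = 0.0452). E2f5, a repressor E2F, averaged 10.5 ± 0.476 FPKM in Ctrl and 6.15 ± 1.19 FPKM in WT (0.69, SE 0.18, limma adjusted p = 0.0400). The E2f3 call was lost in 11 and the E2f5 call in 9 of 21 alternatives, in both with no filter, without any 1 of the Ctrl libraries, WT 2, WT 3 or Arid1a_Het 1, and without the libraries that carry Ctrb1. Between Arid1a_Het and Ctrl limma called 0 genes of any pathway list, as did voom. Zbtb17, Mga, E2f6, E2f5 and Huwe1 of these lists were lower at an unadjusted limma p under 0.05, as were 10.5% of all tested genes. For E2f5 the log2 fold change was -0.41 (limma adjusted p = 0.420).

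The lists of Myc targets, later cyclins and proliferation genes had positive medians in Ctrl against WT with 0 genes called. The examples named from these lists were chosen after their values were seen. Of the 21 tested Myc target genes, 21 had positive log2 fold changes as deposited and 19 after median-ratio scaling or quantile normalization, with a median of 0.65. Limma called 0 higher and 0 lower, 11 were higher at an unadjusted p under 0.05, voom called 0, and the replicate block called 9 higher. Of all tested genes, 23.7% were higher at an unadjusted p under 0.05, 5.53% were called higher by voom, and the replicate block called 16.1% higher and 5.97% lower, which is the background for the counts of the other lists too. Gnl3, a nucleolar GTPase gene, averaged 31.2 ± 3.87 FPKM in Ctrl and 12.8 ± 6.41 FPKM in WT, and Npm1, the gene of nucleophosmin, 61.7 ± 4.24 FPKM in Ctrl and 33.9 ± 12.8 FPKM in WT. Odc1, the gene of ornithine decarboxylase and a classical Myc target, averaged 19.0 ± 2.07 FPKM in Ctrl and 18.1 ± 1.15 FPKM in WT. Between Arid1a_Het and Ctrl the median of the 21 genes was -0.18, close to the -0.16 of all tested genes, and it was 0.02 after median-ratio scaling.

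Of 10 later cyclins and kinases the median was 0.82 in Ctrl against WT, with 0 called by limma and 4 higher at an unadjusted p under 0.05, 0 by voom and 3 higher with the replicate block. Of 14 proliferation markers all 14 were positive with a median of 0.71, also positive in each after either scaling, with 0 called by limma, 3 higher unadjusted, 0 by voom and 2 higher with the replicate block. Mki67, the Ki-67 gene of dividing cells, had 31.0, 22.3 and 27.0 FPKM in Ctrl libraries, against 31.8, 1.62 and 15.5 FPKM in WT libraries. WT 1 was thus the highest and WT 2 by far the lowest of these libraries. Without the libraries rich in Pgc, WT 2 and Arid1a_Het 2, the median of the proliferation markers was 0.34, that of the later cyclins 0.33 and that of the Myc targets 0.37. In that fit the median of all genes was 0.11 and that of the 10 growth drivers 0.63, with 3 of them called higher, against 6.26% of all genes tested there. Arid1a_Het libraries had 17.0, 4.21 and 8.43 FPKM of Mki67, each below every Ctrl library, though the change was not called (limma adjusted p = 0.475).

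Of the 9 tested partners and antagonists in the Myc network, limma called 0 in Ctrl against WT, with a median of 0.43, while 3 were higher and 1 lower at an unadjusted p under 0.05, and voom called 0. With the replicate block Mxd1 and Mxd3, which encode Max partners that oppose Myc, were called higher and Mxi1, another of them, lower. Of the 11 tested genes for the turnover of Myc and cyclin D limma called 0, with a median of 0.33, 3 higher and 1 lower unadjusted, 0 by voom and 1 higher, Fbxo4, with the replicate block. Of the 7 tested Wnt readouts limma called 0, with 0 at an unadjusted p under 0.05 and 0 by voom, with a median of 0.04, which was below 0 after median-ratio scaling (-0.08) and quantile normalization (-0.30).

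**Figure D4:**
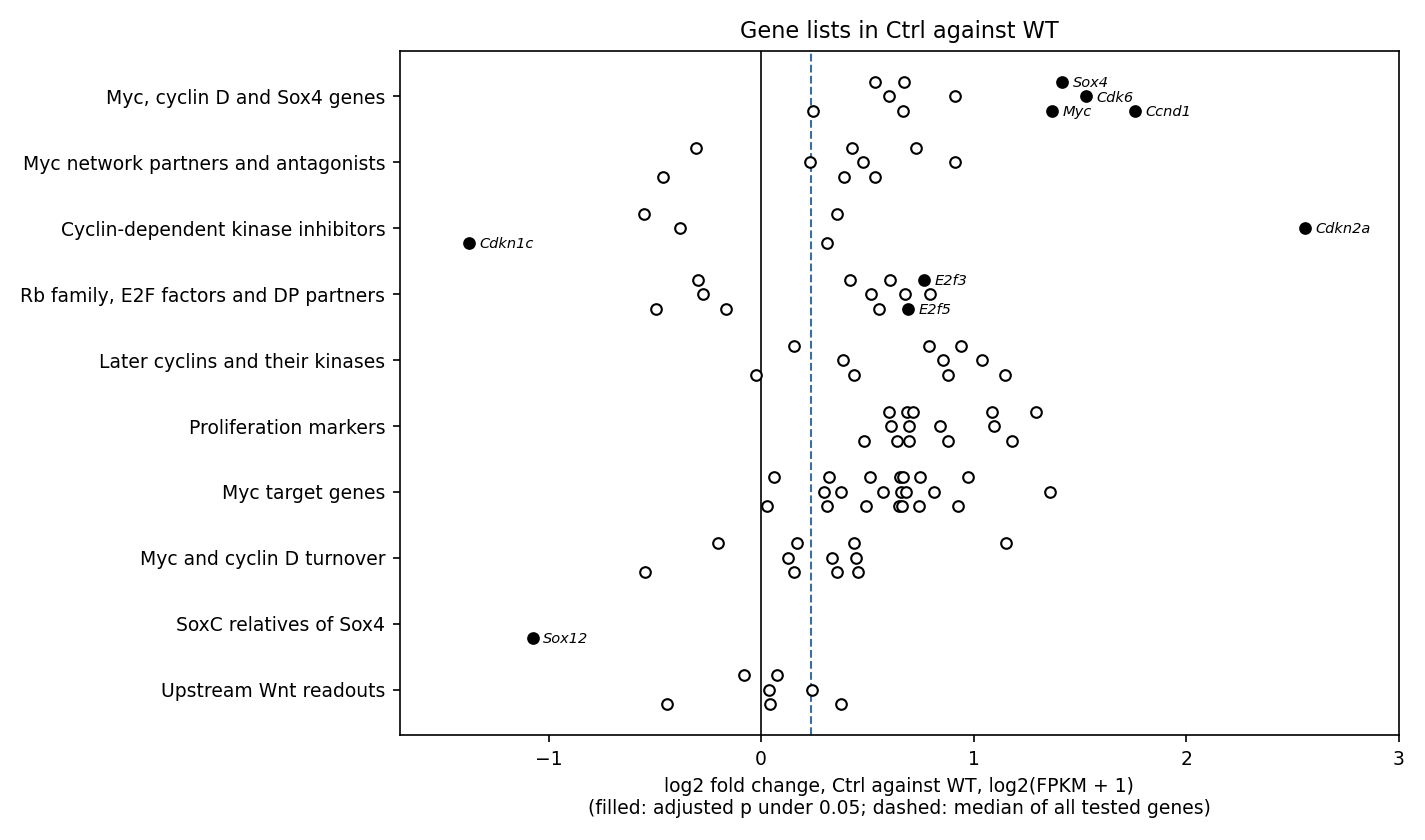
Log2 fold change in Ctrl against WT on the log2(FPKM + 1) scale for the growth drivers and the tested genes of each pathway list, 1 point per gene, filled where limma's adjusted p was under 0.05, with a dashed line at the median of all tested genes (0.24). The filled points are 4 growth drivers, Cdkn2a, Cdkn1c, E2f3, E2f5 and Sox12.

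Markers of some cell types in the glands differed between the same groups. Their part in the values of the growth drivers was not tested. The summed FPKM of 10 parietal cell genes was 642 to 5891 in Arid1a_Het, 458 to 1522 in Ctrl and 3030 to 14961 in WT, and 6 of the 10 were called lower in Ctrl than in WT. Pit cell genes, 3 of 6 called lower in Ctrl than in WT, summed to 45399 to 80906 FPKM in Arid1a_Het libraries, 37587 to 45512 FPKM in Ctrl libraries and 70369 to 96216 FPKM in WT libraries. Chief cell genes summed to 7303 to 82692 in Arid1a_Het, 5726 to 19463 in Ctrl and 12057 to 82457 in WT, and neck cell genes to 5064 to 9591 in Arid1a_Het, 6283 to 16594 in Ctrl and 5381 to 11979 in WT. In Ctrl against WT 0 of 5 tested chief cell genes and 0 of 5 tested neck cell genes were called. Enteroendocrine genes summed to 49.1 to 163 FPKM in Arid1a_Het libraries, 56.9 to 119 in Ctrl libraries and 517 to 641 in WT, with no overlap between WT and the other groups and 4 of 6 called lower in Ctrl than in WT. Squamous genes, of which Trp63 was under 1 FPKM in all libraries, summed to 203 to 723 in Arid1a_Het, 253 to 756 in Ctrl and 46.2 to 418 in WT. For Ctrl against WT, limma gave a higher call to 2 of the 6 squamous genes tested and a lower call to 0. All 6 log2 fold changes were positive there, with a median of 1.48.

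Leukocyte genes summed to 20.3 to 117 FPKM in Arid1a_Het libraries, 37.5 to 57.5 in Ctrl libraries and 13.3 to 99.8 in WT, with Cd4 and Ms4a1 under 1 FPKM in all libraries. Stromal and endothelial genes summed to 4.86 to 61.5 FPKM in Arid1a_Het libraries, 9.39 to 21.7 in Ctrl libraries and 9.54 to 98.4 in WT, with Cdh5 and Pdgfrb under 1 FPKM in all. In Ctrl against WT, 1 of 7 tested leukocyte genes was called higher, and 0 of 6 tested stromal and endothelial genes were called. The exocrine pancreas list summed to 1314 to 8894 FPKM in Arid1a_Het libraries, 838 to 5281 in Ctrl libraries and 2398 to 12774 in WT, with Clps as its highest gene. This sum was highest in WT 2 (12774), WT 3 (11720) and Arid1a_Het 2 (8894). In the libraries that carry Ctrb1 it was 5281 (Ctrl 1) and 2292 (Arid1a_Het 3), so it did not follow Ctrb1. In Ctrl against WT 0 of 5 tested genes of this list were called. The highest genes of the other lists were Atp4a, Pgc, Gkn2, Tff2, Ghrl, Lyz2, Dcn and Sprr1a. Without the libraries that carry Ctrb1, Ctrl against WT had 3 calls among the 9 growth drivers tested (Ccnd1, Cdk6 and Sox4, all higher), against 3.94% of all genes tested there, and Arid1a_Het against WT had 0.

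Some growth drivers share annotated bases with a gene on the opposite strand. Sox4 shares 2753 bases with a long noncoding gene, and Cdk6 shares 8013 and 1448 bases with antisense genes. None of these has FPKM values here. Ccnd3 shares 361 bases with Bysl, which had 5.62 to 14.5 FPKM, Ccnd1 shares 1771 bases with LTO1, listed in the table under its older symbol Oraov1 at 2.41 to 4.89 FPKM, and Ccnd2 shares 2805 bases with a long noncoding gene at 0 to 0.0869 FPKM. Oraov1 was not called in Ctrl against WT (log2 fold change 0.16, SE 0.24, limma adjusted p = 0.640), and Bysl had a log2 fold change of 0.46 (SE 0.23, limma adjusted p = 0.186). Ccnd3 has 1 named pseudogene, whose reads the counting could have shared. On GRCm38 (GENCODE M21) Myc lies on chromosome 15 at 61985391 to 61990374, Mycl on 4 at 122995652 to 123002485, Mycn on 12 at 12936093 to 12941914 and Max on 12 at 76937269 to 76962201. Ccnd1 lies on 7 at 144929931 to 144939925, Ccnd2 on 6 at 127125162 to 127152193 and Ccnd3 on 17 at 47505051 to 47599691. Cdk4 lies on 10 at 127063534 to 127067920, Cdk6 on 5 at 3341485 to 3531008 and Sox4 on 13 at 28948919 to 28953713.

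**Figure D5:**
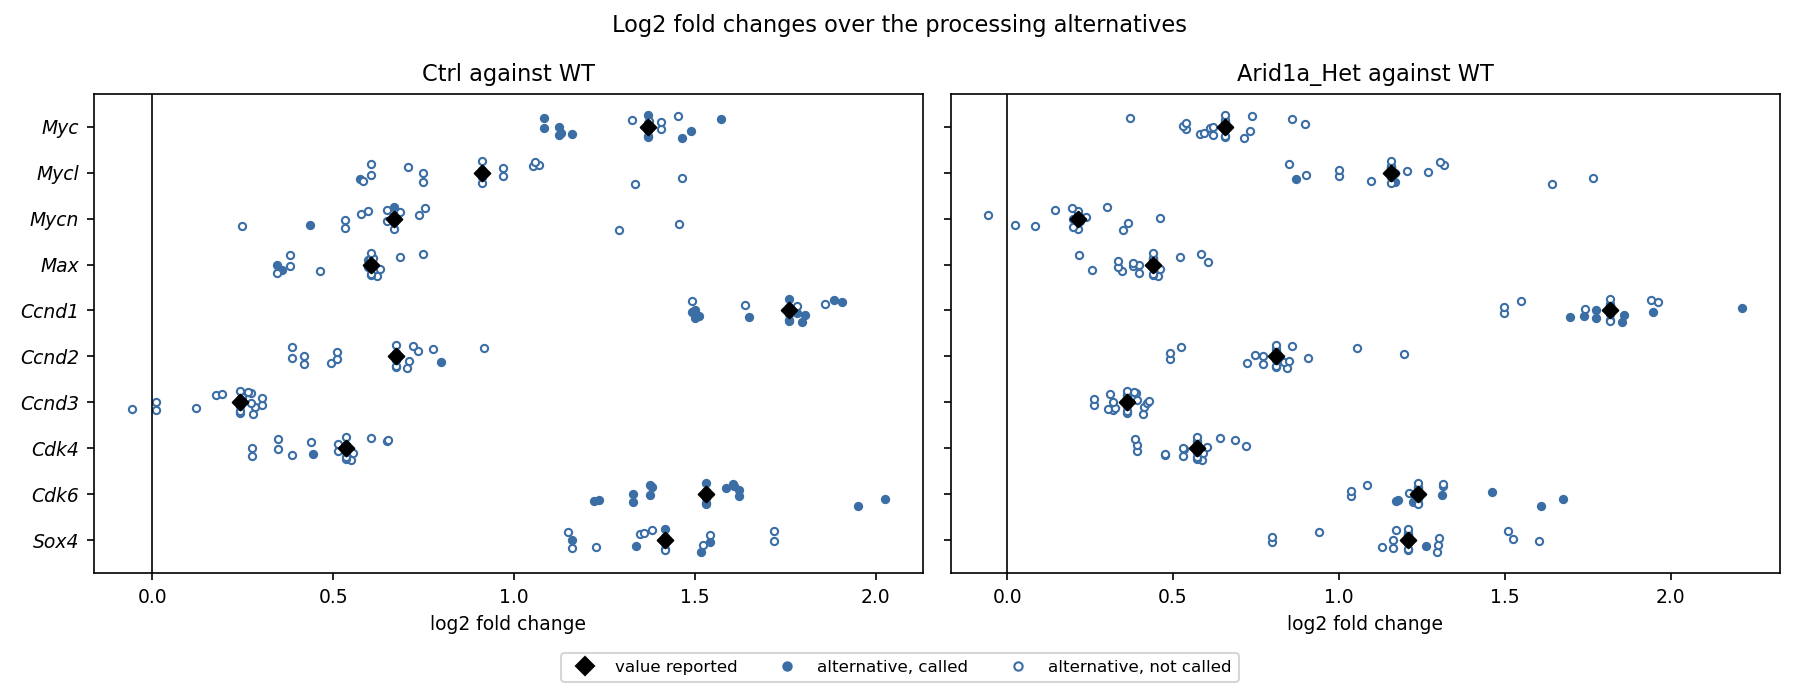
Log2 fold change of each growth driver in Ctrl against WT and in Arid1a_Het against WT as reported (diamond) and under each processing alternative (circles, filled where called). Cdk6 is filled throughout in Ctrl against WT, and Ccnd3 is the gene that crosses 0 there.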

How the data were processed

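The authors deposited a table of FPKM values for 18423 genes in 9 libraries. The aligner STAR 2.4.2a and the build GRCm38 (mm10) are named, per the submitters' processing notes; the tool that counted reads and made the FPKM values, and its use of strand, are not given in the sources used here. Per the labels' protocols, the library kit keeps the strand of the mRNA. FPKM values were used as deposited. Whole reads, worked out from the FPKM steps within a tolerance of 0.01, came out for all 18423 genes and gave the depth and the input of limma voom.

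Genes were kept where 3 or more libraries reached 1 FPKM, which gave 11209 genes and left out 7214. All 9 libraries entered 1 limma fit (version 3.58.1, R 4.3.3, lmFit and eBayes with trend) of log2(FPKM + 1). It was tested on simulated data. Calls needed a Benjamini-Hochberg adjusted p under 0.05. Figures were drawn with Python 3.11.15 and matplotlib 3.10.9.

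The genes and lists were chosen with earlier results of these data known. Named were all growth drivers, the called genes of each pathway list, the highest gene of each cell type list, overlapping genes, and the 5 nearest patterns of Myc, Ccnd1 and Sox4. Cip2a, Lipf and Cblif of the lists are not in the table, and 1 leukocyte marker is not reported here by name.

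Between like-numbered Ctrl and WT libraries, deviations from the group mean correlated at 0.207, 0.336 and 0.138. Libraries of unlike number were not set beside them, so these values do not settle whether the numbers pair libraries. The main fit took no pairing, since the labels do not say what a number shares, and the replicate block was an alternative. For Arid1a_Het the correlations were -0.151, 0.467 and -0.0202 with Ctrl and 0.252, 0.563 and -0.279 with WT. The block fit called 2473 genes in Ctrl against WT, against 1127 without it.

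Alternatives were no filter, a pseudocount of 0.1, a filter at 5 FPKM, median-ratio scaling, quantile normalization, only the groups compared, array weights, voom, the replicate block, a fit without the libraries that carry Ctrb1 (Arid1a_Het 3 and Ctrl 1), and each library left out. Added after seeing the data were a fit without WT 2 and Arid1a_Het 2 and 1 with scaling and block together.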

Additional observations from a re-analysis of the deposited data

How the results depend on the processing

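Calls of higher growth drivers numbered 4 of 10 in Ctrl against WT and 2 in Arid1a_Het against WT. With array weights, a fit that did not converge and called 5710 genes in Ctrl against WT, these were 9 and 4. In Arid1a_Het against WT they were 0 with no filter, 0 without the libraries that carry Ctrb1 and 0 with only the 2 groups compared. Leaving out each library in turn gave 1 to 4 in Ctrl against WT and 0 to 2 in Arid1a_Het against WT. The replicate block gave 5 in Ctrl against WT and 2 in Arid1a_Het against WT, and beside Max it changed no call of a growth driver. Some uncalled changes turned round. Quantile normalization gave -0.057 for Ccnd3 in Ctrl against WT. In Arid1a_Het against Ctrl, median-ratio scaling gave 0.052 for Max and 0.0037 for Sox4, with or without the replicate block, and the fit without the libraries rich in Pgc gave 0.000783 for Max. Without the libraries that carry Ctrb1 that comparison gave -0.29 for Ccnd1, -0.021 for Ccnd2, -0.041 for Ccnd3 and -0.12 for Cdk4. Over the libraries left out in turn it ran from -0.27 to 0.000783 for Max, -0.26 to 0.45 for Ccnd1, -0.18 to 0.52 for Ccnd2, -0.14 to 0.19 for Cdk4 and -0.62 to 0.11 for Sox4, and Mycn in Arid1a_Het against WT ran from -0.057 to 0.46. A minimum FPKM of 5 left Mycl and Mycn untested. With 3 libraries a group, changes near the spread between libraries were not separable; the causes of the lost calls were not tested.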
